A study of Mus musculus with 16 samples.

Results

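The 10 genes described here code for the main cytosolic and mitochondrial chaperones of the heat shock response: the inducible Hsp70 pair Hspa1a and Hspa1b, the constitutive Hsp70 Hspa8, the cytosolic Hsp90 pair Hsp90aa1 and Hsp90ab1, the J-domain cochaperones Dnaja1 and Dnajb1, the mitochondrial chaperonin pair Hspd1 and Hspe1, and the nucleotide exchange factor Hsph1. They were taken by symbol, and all 10 were found among the 55414 Ensembl gene identifiers of the count table. RNA had been sequenced from leukaemia-propagating cells (LPC) of mice that model pro-B acute lymphoblastic leukaemia of infancy. All 16 libraries share the genotype, which is Kmt2a-AFF1+ with overexpression of miR-128a. They had been taken from the central nervous system (CNS) or the bone marrow (BM) and sorted as lineage-negative, Sca1+, cKit+ and IL7R+ (LSK) or as lineage-negative, Sca1- and cKit+ (LK, also called CLP in the series' design text), which gave 4 groups of 4 libraries: BM LSK, CNS LSK, BM LK and CNS LK. No treatment, time or age, no healthy control and no promoter driving the fusion or the microRNA was given in the labels. The study's comparisons were niche (CNS against BM) and LPC type (LSK against LK). In bulk RNA, fewer cells of a type and less RNA per cell cannot be told apart.

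Chaperones hold unfolded proteins and help them reach their native state. Hsp70 proteins bind exposed hydrophobic stretches in a cycle of ATP hydrolysis that J-domain proteins start and exchange factors such as Hsph1 reset, and they pass some clients on to Hsp90, which keeps many kinases and transcription factors in an active form. The chaperonin Hspd1 (Hsp60) with its lid Hspe1 (Hsp10) folds proteins imported into mitochondria. When unfolded protein accumulates, the transcription factor Hsf1 binds heat shock elements, which are inverted repeats of the bases GAA, and drives Hspa1a, Hspa1b, Dnajb1 and Hsph1 in particular, so that the first of these are widely read as markers of heat or handling stress, while Hspa8 and Hsp90ab1 are made at high levels at all times in dividing cells.

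The libraries held 19163942 to 29232623 counts each, of which the 10 genes took 0.357% to 0.464%. The sorted antigens were present in all libraries for cKit (Kit, 116 to 168 CPM, the usual scaling of counts to library size, here with TMM factors) and IL7R (Il7r, 59.5 to 103 CPM), while Ly6a, which codes for Sca1, stood at 0.470 to 2.26 CPM, with a log2 change of 1.30 between LSK and LK (edgeR's quasi-likelihood test, adjusted p = 0.0117), which the sort on Sca1 chose. Among genes that define pro-B cells, Rag1 was at 213 to 341 CPM and Dntt at 10.5 to 248 CPM, while Blnk stayed at or under 2.66 CPM, Pax5 at or under 1.52 CPM, Ebf1 at or under 1.44 CPM and Igll1 at or under 0.481 CPM. Dntt was higher in CNS with BM and CNS libraries paired (log2 change 0.97, adjusted p = 9.98e-06, edgeR's quasi-likelihood test). The groups are therefore called here by their sort and not as pro-B cells. Among markers of other cell types the sums ran from 1.68 to 6.58 CPM over 8 myeloid genes, from 1.95 to 3.65 over 7 erythroid genes, from 4.69 to 14.3 over 6 microglial genes and from 11.0 to 23.6 over 8 T and NK genes, and those over neural and endothelial genes rested on Mbp (28.5 to 52.0 CPM) and Pecam1 (57.2 to 102 CPM).

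The regulatory sequence that ties these genes together is the heat shock element, so the 250 bases before each RefSeq transcription start (GRCm38.p6) were searched on both strands for GAANNTTCNNGAA or TTCNNGAANNTTC, which are 3 inverted units, and for the 2-unit forms GAANNTTC or TTCNNGAA that lie inside them. The promoter table held 7 of the 10 genes (not Hspa8, Hsp90aa1 or Hsp90ab1). A 3-unit match was present in 2 of the 7 genes, against 0.520% of all 26734 genes in the table, and a 2-unit match in 6 of the 7, against 14.6% of all genes. A gene with several starts was counted where any of them had a match. The 2 genes with a 3-unit match, Hspd1 and Hspe1, share the same run of bases, and the Hspa1a and Hspa1b promoters are near copies. The members counted are therefore not all separate sequences. The following 30-base stretches, 5′ to 3′ on each gene's own strand with the matched bases in capitals, show what the matches look like.
Hspd1: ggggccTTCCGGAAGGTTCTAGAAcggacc
Hspe1: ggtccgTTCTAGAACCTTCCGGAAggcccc
Hsph1: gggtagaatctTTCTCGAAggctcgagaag
Dnaja1: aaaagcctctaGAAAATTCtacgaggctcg
Hspa1a and Hspa1b: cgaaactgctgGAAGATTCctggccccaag
Hspd1 and Hspe1 are transcribed in opposite directions from a shared promoter, and the match is the same run of 18 bases on both strands (stretch at chr1:55088053-55088082, minus strand for Hspd1 and plus strand for Hspe1). It begins 144 bases before an Hspd1 start and 89 bases before the Hspe1 start, and it lies in the first exon of another Hspd1 transcript in GENCODE M21. The window before another Hspd1 start (chr1:55088244-55088493) had no match. The Hsph1 stretch is chr5:149636351-149636380 on the minus strand. Its match begins 54 and 33 bases before the 2 RefSeq starts of the gene, and it also lies in the first exon of another transcript in GENCODE M21. The Dnaja1 stretch is chr4:40722333-40722362 on the plus strand with its match 124 bases before the most upstream RefSeq start of the gene, again in the first exon of another transcript. The windows before its other starts (chr4:40722672-40722921 and chr4:40722680-40722929) had no match. Dnajb1 had no match in this window, which says only that these letters are not there. A match is a description of letters and not evidence that a factor binds.

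Hspa1a and Hspa1b are neighbouring copies on the minus strand of chromosome 17 with almost the same promoter. The 250 bases before the Hspa1a start (chr17:34972157-34972406, minus strand, GRCm38.p6) are printed because the copies cannot be told apart by most of their sequence, with the 2-unit match, 104 bases before the start, in capitals.
Hspa1a: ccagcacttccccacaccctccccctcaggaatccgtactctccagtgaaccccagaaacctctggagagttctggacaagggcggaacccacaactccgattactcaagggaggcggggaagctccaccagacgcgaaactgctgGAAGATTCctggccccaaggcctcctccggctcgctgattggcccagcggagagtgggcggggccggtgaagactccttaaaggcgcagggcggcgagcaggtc
The Hspa1b promoter (chr17:34959239-34959488, minus strand) has the same base at 247 of these 250 positions, with the match in the same place.

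The levels of the 10 genes differed widely from gene to gene. Between the lowest and highest library, the 8 abundant genes differed by 1.18-fold (Dnaja1) to 1.84-fold (Dnajb1), while the inducible pair varied more. Measured per length, in CPM per kilobase of annotated exons averaged over the 16 libraries, Hsp90ab1 was highest at 649, followed by Hspa8 at 249, Hsp90aa1 at 155, Hspd1 at 81.5, Hspe1 at 32.4, Dnaja1 at 9.99, Dnajb1 at 8.73 and Hsph1 at 6.37. Hspa1a at 0.134 and Hspa1b at 0.102 were far below the rest. Among 21714 protein-coding genes with a count, Hsp90ab1 had rank 20, Hspa8 rank 86, Hsp90aa1 rank 124 and Hspd1 rank 219, while Hspa1a had rank 12566. The ranges over libraries of neighbours in this order did not overlap down to Hspe1. Dnaja1 (9.09 to 10.8 CPM per kilobase) and Dnajb1 (7.06 to 12.97) overlapped, as did Dnajb1 and Hsph1 (5.32 to 7.65), and Hspa1a and Hspa1b. The length was that of all annotated exons merged, 8629 bases for Dnaja1, 7266 for Hsph1 and 1474 for Hspe1. The order and the ratios per length depend on this choice: without the length, Dnaja1 averaged 86.2 CPM and Hspe1 47.8 CPM.

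**Figure D1:**
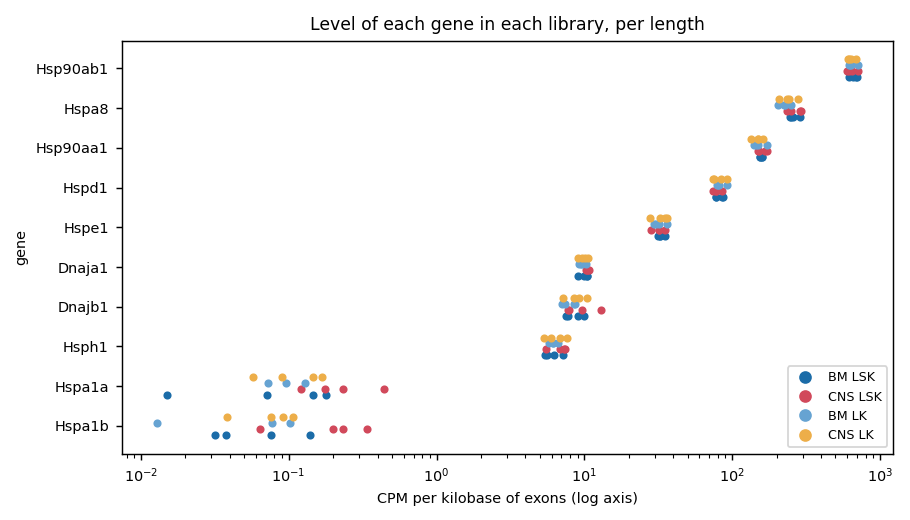
Level of each of the 10 genes in each of the 16 libraries, in CPM per kilobase of exons on a log axis, coloured by group (values of 0, in BM LK 4 for Hspa1a and Hspa1b, cannot be drawn). Hsp90ab1 averaged 649 and Hspa1a 0.134, and the libraries of a gene sit close together except for the inducible pair.

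Hsp90ab1 (ENSMUSG00000023944), the constitutive cytosolic Hsp90, was at 2053, 1840, 2094 and 1980 CPM in the BM LSK libraries 1 to 4, at 1805, 1857, 1941 and 2142 in CNS LSK, at 1905, 1880, 2136 and 1850 in BM LK, and at 1825, 1919, 2058 and 1864 in CNS LK. The 4 groups overlapped throughout, and the highest library was only 1.19 times the lowest. Its partner Hsp90aa1 (ENSMUSG00000021270), the form that heat shock raises most, was at 603, 611, 629 and 623 CPM in BM LSK, at 654, 592, 602 and 672 in CNS LSK, at 569, 593, 675 and 556 in BM LK, and at 528, 640, 591 and 591 in CNS LK. These groups overlapped too, and the largest spread over the lowest was 1.28-fold. Per length, Hsp90ab1 exceeded Hsp90aa1 in every library, by 3.62-fold (CNS LSK 1) to 4.56-fold (CNS LK 3).

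Hspa8 (ENSMUSG00000015656), the constitutive Hsp70 that also uncoats clathrin vesicles, was at 1056, 1234, 1107 and 1072 CPM in BM LSK (mean 1117 ± 80.7 SD, n = 4), at 1011, 1267, 1080 and 1239 in CNS LSK (1149 ± 124), at 986, 1081, 873 and 969 in BM LK (977 ± 85.3), and at 1041, 1195, 900 and 1010 in CNS LK (1036 ± 122). The LSK means were above the LK means in both niches, and single libraries of the groups overlapped.

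The mitochondrial pair was even. Hspd1 (ENSMUSG00000025980) ranged from 196 to 244 CPM over the 16 libraries with a median of 211, and Hspe1 (ENSMUSG00000073676) from 41.0 to 53.6 CPM with a median of 47.4. The extremes named next lay within LK: the 2 highest values of Hspd1 were in BM LK 4 (242 CPM) and CNS LK 4 (244 CPM), and the lowest and highest of Hspe1 were in CNS LK 1 and CNS LK 2. The ratio of Hspd1 to Hspe1 per length ran from 2.12 (CNS LK 3) to 2.89 (BM LK 4).

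Among the cochaperones, Dnaja1 (ENSMUSG00000028410), a farnesylated partner of Hspa8, was the steadiest at 78.5 to 92.9 CPM. Hsph1 (ENSMUSG00000029657, Hsp110) ranged from 38.7 to 55.6 CPM. Dnajb1 (ENSMUSG00000005483, Hsp40), a target of Hsf1 and a partner of inducible Hsp70, was at 31.9, 24.9, 29.0 and 24.2 CPM in BM LSK, at 41.5, 24.96, 31.1 and 25.1 in CNS LSK, at 27.7, 23.6, 27.5 and 22.6 in BM LK, and at 29.6, 33.2, 27.3 and 23.0 in CNS LK. CNS LSK 1 stood above the others, and the ratio of Dnaja1 to Dnajb1 per length, whose median was 1.13, fell to its lowest value of 0.809 in that library.

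The spread between replicates was small for most of these genes. The SD of log2 CPM within groups was 0.0726 for Dnaja1, 0.0910 for Hsp90ab1 and 0.0968 for Hsp90aa1, against 0.180 for Hsph1 and 0.238 for Dnajb1. The median over the 8 members with a mean of at least 50 counts was 0.118, beside 0.168 over all 11828 such genes and 0.120 over the 5086 genes with a mean of at least 500 counts. All 8 had a mean of at least 500 counts, so that the latter genes are nearer in depth.

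**Figure D2:**
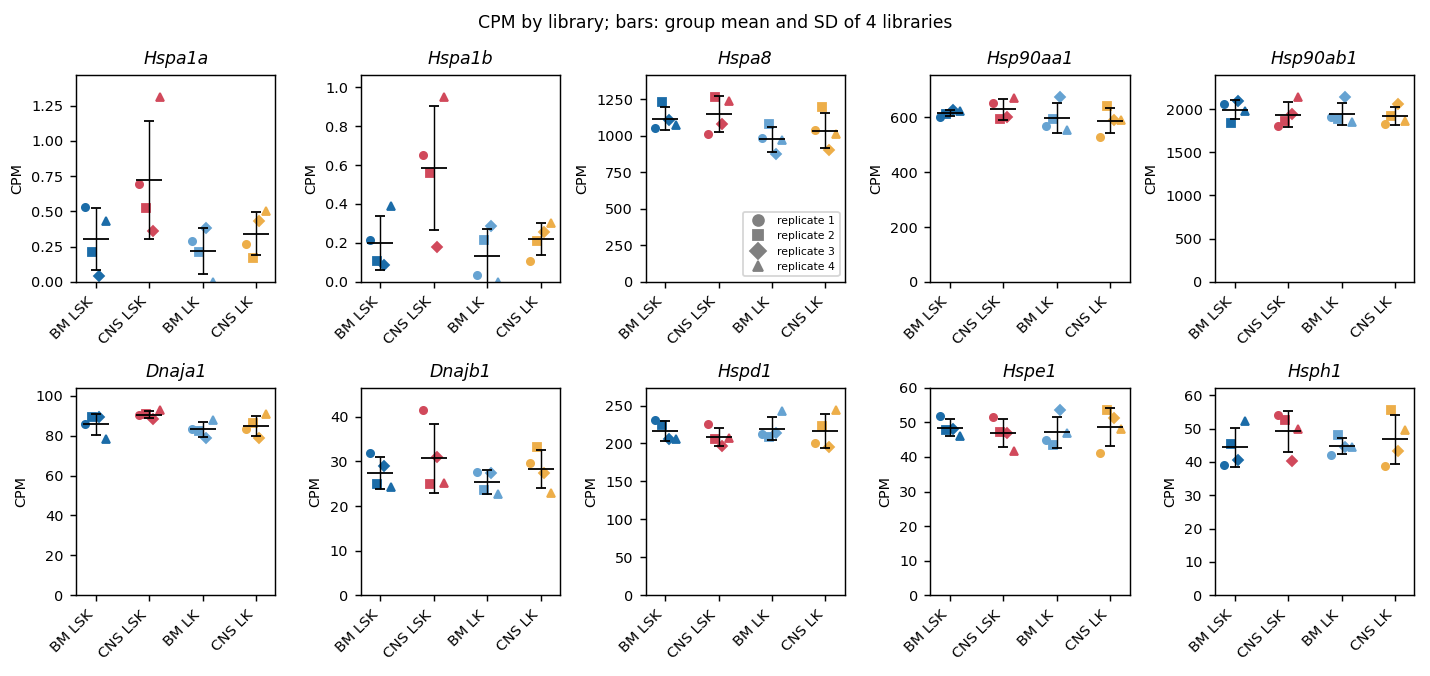
CPM of each gene in each library (points, shaped by replicate number and coloured by group), with the group mean and SD of 4 libraries as black bars; each axis starts at 0. The 8 abundant genes are at similar levels in all groups, and Hspa1a and Hspa1b are highest in CNS LSK, at 1.31 and 0.951 CPM in replicate 4.

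The inducible pair was close to the limit of what these libraries can show. Hspa1a (ENSMUSG00000091971) had between 0 and 1.31 CPM and Hspa1b (ENSMUSG00000090877) between 0 and 0.951, and both together had 0 to 50 counts in a library. As a sum, the pair was at 0.744, 0.318, 0.133 and 0.825 CPM in BM LSK (mean 0.505 ± 0.333 SD, n = 4), at 1.35, 1.08, 0.537 and 2.26 in CNS LSK (1.31 ± 0.721), at 0.323, 0.429, 0.671 and 0 in BM LK (0.356 ± 0.278), and at 0.374, 0.381, 0.688 and 0.802 in CNS LK (0.561 ± 0.217). CNS LSK 4 was highest and BM LK 4 had no count at all, which at its depth allows up to 0.120 CPM (3 counts, counting error only). Hspa8 exceeded the pair per length by 368-fold in CNS LSK 4 and by more in each other library with a count.

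To see how far such values stand above stray reads, the pair was set beside 1464 olfactory and vomeronasal receptor genes, which blood cells are not known to use. These receptor genes had a pooled level of 0.0320 to 0.106 CPM per kilobase. Hspa1a was above that level in 13 of 16 libraries and Hspa1b in 9 of 16, at most 6.11-fold and 4.68-fold, both in CNS LSK 4. Against the 95th percentile of single receptor genes in the same library, Hspa1a was higher in 3 libraries (BM LSK 4, CNS LSK 4 and BM LK 3) and Hspa1b in 2 (BM LSK 4 and CNS LSK 4). In most libraries each gene was thus below the 95th percentile of genes taken as background, although Hspa1a was mostly above their pooled level.

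**Figure D3:**
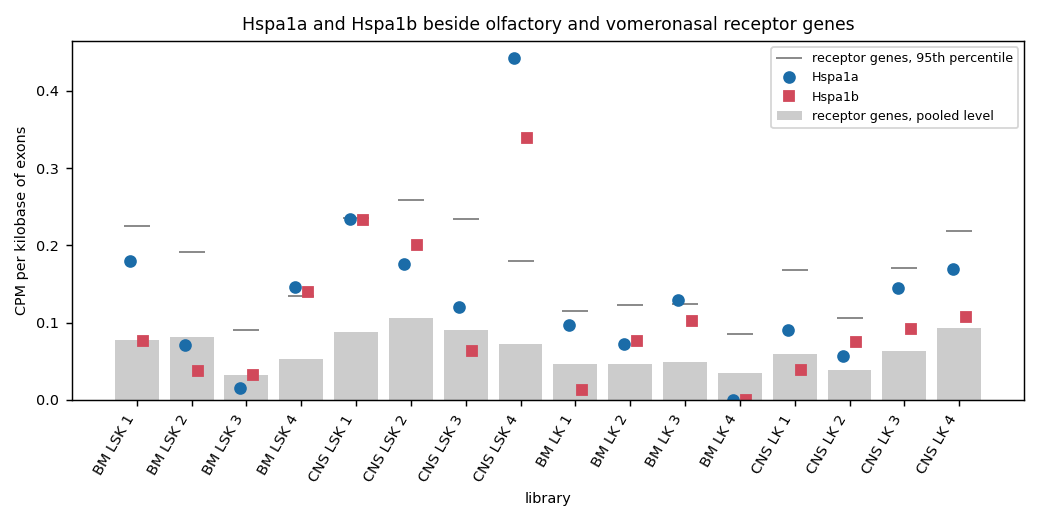
Hspa1a (circles) and Hspa1b (squares) in each library, in CPM per kilobase of exons, beside the pooled level (bars) and the 95th percentile (dashes) of 1464 olfactory and vomeronasal receptor genes. CNS LSK 4 is the library in which both genes clear the dashes most, and in most others they lie below them.

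How the reads were assigned bears on these values. Of the distinct 31-base words in the annotated Hspa1a transcripts, 63.8% also occur in Hspa1b, and 67.7% of those of Hspa1b occur in Hspa1a. Whether reads that fit several genes were dropped, split or assigned is not given in the sources used here, so each copy's own value is uncertain, and the sum is the safer quantity where such reads were kept. Where they were dropped, both copies and their sum would be understated. The standing of the pair beside the receptor genes and its ratio to Hspa8 depend on this as well. The same holds for retrotransposed copies of the abundant genes. The 6 Hspa8 pseudogenes that share at least 25% of their words with it, Gm15459 (91.9% shared) foremost, held counts equal to 77.3% of the counts of Hspa8 itself. For Dnaja1 the figure was 92.6% (3 pseudogenes, chiefly Gm15542), for Hsp90aa1 40.2% (3 pseudogenes, chiefly Gm12346), for Hspd1 12.8% and for Hspe1 0.795%. Hsp90ab1, Dnajb1 and Hsph1 had no such pseudogene. With these counts added, Hspa8 would average 1896 CPM in place of 1070, Dnaja1 166 in place of 86.2 and Hsp90aa1 851 in place of 608, so that levels between genes depend on this choice.

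The first comparison asked whether the niche in which the leukaemia sits goes with chaperone expression. It did not at a detectable size for any of the 8 genes with a mean of at least 10 counts (all but Hspa1a and Hspa1b, which are taken up below). Of these 8, 0 passed an adjusted p of 0.05 between CNS and BM over both LPC types (edgeR's quasi-likelihood test, Benjamini-Hochberg adjustment over 18878 genes), where the share of all genes called was 0.00%. The log2 changes ran from -0.04 (Hspd1) to 0.16 (Dnajb1), with 5 above 0 and 3 below, a median of 0.03 and a median over all genes of 0.00. None of the 8 had an unadjusted p under 0.05, where 9.15% of all genes did, and DESeq2 called 0 of the 8 as well. Of the 95% confidence intervals, the lowest bound was -0.15 and the highest 0.37 on the log2 scale, which leaves room for changes of up to 1.30-fold.

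The BM and CNS libraries of a pair shared the first part of a label, here called a stem, and same-stem libraries deviated together. With the stem as a replicate block, 126 genes (0.667%) were called over both LPC types, and still 0 of the 8 members. Dnajb1 came nearest, at a log2 change of 0.15 ± 0.06 (SE; edgeR's quasi-likelihood test, adjusted p = 0.301), and it was the 1 member of 8 with an unadjusted p under 0.05 in that fit, as had 13.4% of all genes. In 7 of 8 stems it was higher in CNS than in BM, which 7.66% of all genes were in at least that many stems. Without the block its change was 0.16 ± 0.10 (adjusted p = 0.692). Leaving out CNS LSK 1, the change was 0.07 without the block (adjusted p = 0.881), and within LSK it was then -0.02.

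Within LSK the 8 log2 changes between CNS and BM lay between -0.05 and 0.16, and within LK between -0.03 and 0.16, with 0 called in either (0.00% of all genes in both, by edgeR). At an unadjusted p under 0.05 there were 0 of the 8 in both, beside 5.74% of all genes in LSK and 3.99% in LK, and DESeq2 called 0. With the stem as a block, 0 of the 8 passed an adjusted p of 0.05 in LSK, beside 0.138% of all genes. In LK 0 of the 8 passed it, beside 0.0636% of all genes. Whether the niche change differed between LSK and LK was tested as an interaction. The 8 differences between the changes ran from -0.09 (Hspe1) to 0.09 (Hsph1), the smallest adjusted p was 1, and 0 of all genes were called (0.00%), with 1.49% at an unadjusted p under 0.05 and 0 of the 8 members among them.

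Hspa1a and Hspa1b were tested as their sum, since alone each fell under the minimum of 10 counts. The sum was 2.06-fold higher in CNS over both LPC types (log2 change 1.04, 95% confidence interval 0.11 to 1.97, edgeR's quasi-likelihood test, unadjusted p = 0.0306, adjusted p = 0.494). With the stem as a block the log2 change was 1.11 (same test, unadjusted p = 0.0135, adjusted p = 0.25). An unadjusted p under 0.05 was found for 9.15% of all genes without the block and 13.4% with it. Only the stem of LK 2 had less of the pair in CNS than in BM, against 7 of 8 with more. Of all genes, 7.66% were higher in CNS in at least that many stems. The receptor genes used as background were at 0.0724 to 0.106 CPM per kilobase in CNS LSK and at 0.0320 to 0.0817 in BM LSK. In LK they were at 0.0389 to 0.0936 in CNS and at 0.0342 to 0.0487 in BM. With the log2 of their level as a covariate the change of the pair was 0.66 (same test, adjusted p = 0.999). Within LSK the log2 change of the pair without the block was 1.38 (95% confidence interval 0.11 to 2.65, edgeR's quasi-likelihood test, unadjusted p = 0.0343, adjusted p = 0.855). An unadjusted p under 0.05 was found there for 5.74% of all genes. Within LK the change was 0.70 (95% confidence interval -0.67 to 2.06, same test, unadjusted p = 0.298). None of these changes passed an adjusted p of 0.05. Markers of other cell types are given beside them, and their part in the result was not tested. All 4 of the 8 myeloid genes that could be tested had a positive log2 change in CNS (median 0.57, 0 called), and the myeloid sum was 1.82 to 3.53 CPM in BM LSK, 2.40 to 5.43 in CNS LSK, 1.68 to 2.97 in BM LK and 1.78 to 6.58 in CNS LK. Of the neural and glial genes 4 of 8 were tested and 3 were positive, Slc1a2, a glutamate transporter, the most (log2 change 1.34, adjusted p = 0.314, edgeR's quasi-likelihood test; named after its value was seen). Their sum was 32.5 to 44.7 CPM in BM LSK, 35.0 to 60.5 in CNS LSK, 37.6 to 42.2 in BM LK and 40.3 to 45.8 in CNS LK. Among defining markers, S100a8 had a median of 0 and a highest value of 0.201 CPM and Mog never passed 0.224 CPM. CNS LSK 4, which had the most of the inducible pair, had the lowest myeloid (2.40 CPM) and the lowest neural (35.0 CPM) sum of its group. It also had the highest microglial (11.7 CPM) and the highest endothelial and meningeal (92.3 CPM) sum of that group.

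The second comparison asked whether LSK and LK cells, the 2 LPC types, differ. Over both niches 0 of the 8 members were called (edgeR's quasi-likelihood test), where 45 genes or 0.238% were. Each stem belonged to LSK or to LK alone, and the tests over both niches took its BM and CNS libraries as separate. As same-stem libraries deviated together, the standard errors, intervals and p-values of these tests can understate the spread between stems. With counts summed per stem 0 genes were called. Hspa8 was the nearest: it was 1.13-fold higher in LSK, with a log2 change of 0.17 ± 0.07 (SE, 95% confidence interval 0.03 to 0.31, adjusted p = 0.323). At an unadjusted p under 0.05 it was the 1 member of 8, beside 12.1% of all genes. The change was 0.19 within BM (adjusted p = 0.786) and 0.15 within CNS (adjusted p = 0.813), it was 0.16 with pseudogene counts added (adjusted p = 0.38), and it stayed between 0.14 and 0.21 when each library was left out in turn.

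The other 7 log2 changes between LSK and LK lay between -0.04 (Hspd1) and 0.12 (Dnajb1), and the median of the 8 was 0.05, beside -0.01 over all genes. Of the 8 changes 6 were above 0, as were 46.8% over all genes. Hsp90aa1 was at 0.07 ± 0.05 and Dnaja1 at 0.07 ± 0.05 (SE). The Dnajb1 change fell to 0.03 (adjusted p = 0.938) when CNS LSK 1 alone was left out, and it was highest at 0.18 (adjusted p = 0.509) without CNS LSK 4. The 8 changes within BM lay between -0.02 and 0.19 and those within CNS between -0.05 and 0.15, with 0 called in either (0.00% of all genes in both, by edgeR). At an unadjusted p under 0.05 there were 0 of the 8 in both, beside 6.38% of all genes in BM and 6.58% in CNS, and DESeq2 called 0. The Hspa1a and Hspa1b sum was at a log2 change of 0.85 (95% confidence interval -0.09 to 1.78, adjusted p = 0.468). For none of the 10 genes were the groups of libraries free of overlap in any of the 6 pairs of groups compared, which held for 0.0265% of all genes for the niche over both LPC types, 3.68% within LSK and 2.18% within LK, and for 0.0901% for the LPC type over both niches, 3.13% within BM and 3.65% within CNS.

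**Figure D4:**
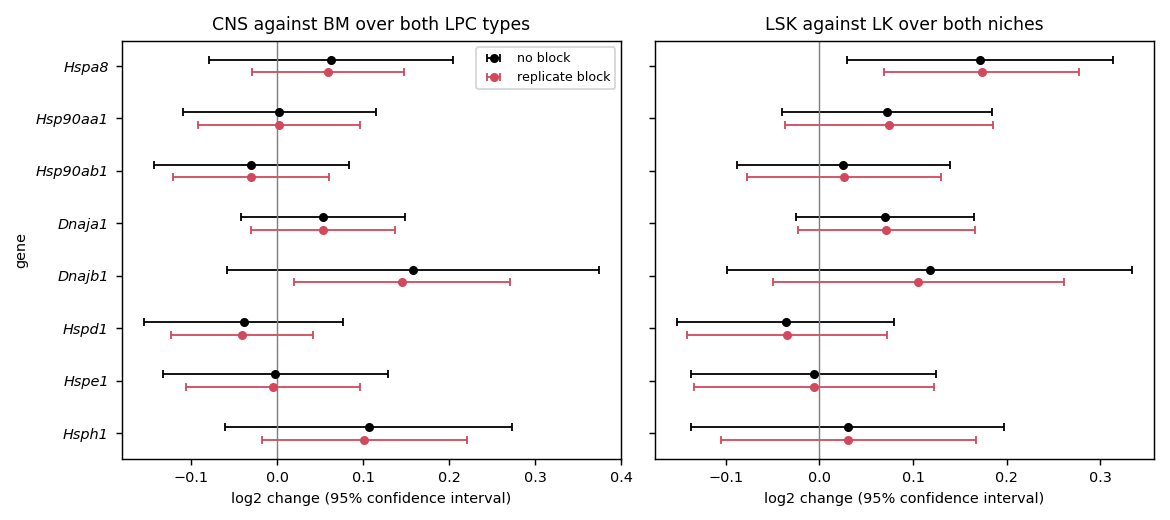
Log2 changes of the 8 tested genes with 95% confidence intervals, for CNS against BM (left) and LSK against LK (right), without a block (black) and with the replicate block (red). The intervals without a block reach from -0.15 to 0.37 for the niche and from -0.15 to 0.33 for the LPC type, and the widest belong to Dnajb1. The LPC type intervals take same-stem libraries as separate.

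Part of the spread of Dnajb1 went with the replicate number. Immediate early genes such as Fosb, Fos, Egr1 and Jun, which rise within minutes of stimulation or of tissue dissociation, summed over a list of 14 to 89.9 to 126 CPM in the 4 libraries with number 1 and to 52.4 to 75.2 CPM in the other 12. Dnajb1 stood at 27.7 to 41.5 CPM in the former and at 22.6 to 33.2 (median 25.05) in the latter, and CNS LSK 1 had both the highest Dnajb1 and the highest immediate early sum. Bag3, an Hsp70 exchange factor under Hsf1 control, was also highest there at 14.98 CPM, and it ranged from 9.82 to 14.98 CPM in the libraries with number 1 and from 7.02 to 13.8 (median 8.13) in the others. Hsph1, another target of Hsf1, overlapped throughout: it was at 38.7 to 54.0 CPM in the libraries with number 1 and at 40.3 to 55.6 (median 46.6) in the others, and its lowest libraries were CNS LK 1 and BM LSK 1. The 2 LK libraries with number 2 had Bag3 at 12.5 and 13.8 CPM without a raised immediate early sum. In that sum Fos, Egr1 and Jun averaged only 0.531, 0.693 and 2.32 CPM, beside 18.4 for Jund, 13.9 for Btg2, 12.3 for Ier2 and 8.99 for Fosb. Fosb was at 12.1 to 32.6 CPM in the libraries with number 1 and at 12.9 CPM in BM LSK 2, while Ier2 was at 11.9 to 14.7 CPM in the former and at 13.8 CPM in CNS LK 3. Without the 4 libraries with number 1, a choice made after the data were seen, the Dnajb1 change was 0.12 for the niche (adjusted p = 0.838) and 0.02 for the LPC type (adjusted p = 0.971). The immediate early genes' part in the level of Dnajb1 was not otherwise tested.

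**Figure D5:**
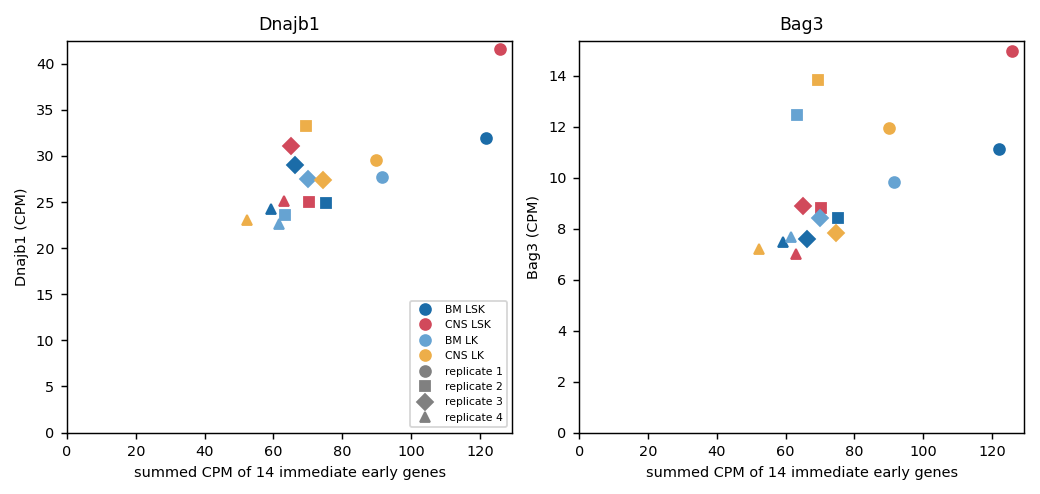
Dnajb1 (left) and Bag3 (right), in CPM, against the summed CPM of 14 immediate early genes in each library, coloured by group and shaped by replicate number. The 4 libraries with number 1 lie to the right at 89.9 to 126 CPM, and CNS LSK 1 is at the top of both plots.

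No gene of the wider chaperone network passed the test either, although some of them varied more between libraries than the 8 abundant members. Of 85 other genes in 8 lists (heat shock factors, Hsp90 cochaperones, Hsp70 partners and exchange factors, further J-domain proteins, small heat shock proteins, mitochondrial chaperones, endoplasmic reticulum chaperones, and the TRiC chaperonin with prefoldin), 77 were tested. Between CNS and BM 0 of the 77 were called (0.00% of all genes), with or without the block. Their log2 changes ran from -0.53 to 0.32. Dnaja4, a J-domain protein with a mean of 10.6 counts, was lowest in CNS LK 3 (0.043 CPM) and highest in CNS LSK 4 (0.906 CPM). The lower value is under the level of 3 counts in its library (0.129 CPM), so the ratio of 21.1 between them is uncertain. At an unadjusted p under 0.05 there were 0 higher and 2 lower in CNS without the block, beside 6.55% of all genes higher and 2.60% lower, and 3 higher and 6 lower with the block, beside 8.06% and 5.38%. The 2 without the block were Dnajc7 (log2 change -0.12) and Trap1, the mitochondrial Hsp90 (-0.13). Both are named here after their values were seen. The median change was -0.01.

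By list, 13 of 16 endoplasmic reticulum chaperones had a positive niche change over both LPC types, with a median of 0.07, where 9439 of all 18878 genes did. Within LSK 13 of 16 were positive (median 0.10) and within LK 10 of 16 (median 0.02), a difference not tested for the list. Their sum ran from 1546 to 2158 CPM over the libraries and was highest in CNS LSK 4. A negative niche change over both LPC types was found in 8 of 11 Hsp90 cochaperones (median -0.05), 9 of 10 mitochondrial genes (median -0.04) and 11 of 14 TRiC and prefoldin genes (median -0.04). Of the TRiC and prefoldin genes, 13 of 14 were negative within LSK (median -0.08) and 7 of 14 within LK (median 0.00), a difference that was not tested for the list. None of these genes passed the test, and the median over all genes was 0.00. Between LSK and LK 0 of the 77 were called as well, beside 0.238% of all genes. At an unadjusted p under 0.05, 5 were higher in LSK, namely Hsf4, Hspa2, Dnaja4, Clpb and Xbp1, and 3 lower, namely Fkbp5, Unc45a and Trap1, beside 7.53% of all genes higher and 4.59% lower. Their adjusted p ran from 0.143 for Dnaja4 (log2 change 1.21) upward, and these names too were chosen after their values were seen.

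Hsf1, the factor that drives the response, was at 27.7 to 41.5 CPM, with a log2 change of 0.00 between niches (edgeR's quasi-likelihood test, adjusted p = 0.996) and of -0.12 between LSK and LK (adjusted p = 0.498). Its RNA does not report its activity, which is set by trimerisation and binding. Of 8 small heat shock proteins, the ATP-independent holdases that heat strongly raises in many cells, only Hspb6 reached the minimum of 10 counts, and the whole list summed to 1.87 to 4.48 CPM, with Hspb1 (Hsp25) at 0 to 0.522 CPM.

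As a description of likeness, log2 CPM over the 16 libraries was correlated between each chosen gene and 11632 other genes with a symbol and a mean of at least 50 counts. The genes most like Hsp90aa1 were Fanci (r = 0.828), Ncl (r = 0.812), Fkbp4 (r = 0.786), Exo1 (r = 0.786) and Mthfd2 (r = 0.780). Fkbp4 is a peptidyl-prolyl isomerase that binds Hsp90. The genes most like the sum of Hspa1a and Hspa1b were 9130208D14Rik (r = 0.768), Gvin1 (r = 0.766), Gm4070 (r = 0.761), D1Ertd622e (r = 0.748) and Fdft1 (r = 0.748), and the level of the receptor genes had r = 0.663 with it. Among members, the closest were Hspa8 with Dnaja1 (r = 0.612) and Hsp90aa1 with Hsp90ab1 (r = 0.556), and Hspd1 with Hspe1 had r = 0.323. Libraries of the same group or stem are not independent, and depth differs between libraries, so no test was made. The genes most like Hspa8 were its own pseudogenes Gm15459 (r = 0.984), Gm8355 (r = 0.925) and Gm6210 (r = 0.910), with which it shares words.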

How the data were processed

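RNA had been measured in 16 libraries made with a low-input stranded total RNA kit, per the labels' protocols. The deposited table held whole-number counts per Ensembl gene identifier. Its title calls them normalised, but column totals differ and size factors by median of ratios spread over 0.804 to 1.30; the deposited counts were therefore treated as raw. The submitters' processing notes name GRCm39 and DESeq2 without a role, and the aligner, the counter and the handling of strand and of reads that fit several genes are not given in the sources used here. Symbols, exon lengths and shared words came from GENCODE M21 and promoters from RefSeq, both of GRCm38.p6. Of the 55414 identifiers, 3333 had no symbol and held 41.8% of counts.

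Identifiers averaging 10 counts or more (18878) were fitted with edgeR 4.0.16 (quasi-likelihood test, TMM factors computed after the filter, group means of 4 groups, Benjamini-Hochberg adjustment over all genes, threshold 0.05), with DESeq2 1.42.0 as an alternative, in R 4.3.3. The scripts were tested on simulated data. Same-stem BM and CNS libraries were taken as pairs, since the deviations from the group means of each of the 8 pairs correlated above 0.1 (0.337 to 0.617 over the 11828 genes averaging 50 counts or more); over all tested genes 6 of 8 did. What a stem stands for is not stated, and where libraries of a group are not from separate animals, p-values measure only the spread between these libraries. A count of 0 was given a floor of 3 counts, and such limits cover counting error only.

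The 10 genes and the lists were chosen with earlier results of these data known. From other lists, genes past the threshold were to be named, at most 3 per list and comparison, as was Hsf1, and for likeness the 5 most correlated genes. The alternatives were no filter, median-of-ratios scaling, DESeq2, a replicate block, identifiers with a symbol only, each library left out, and counts summed per stem. Added after the data were seen were leaving out number 1, a covariate for background, scaling before the filter, and pseudogene counts added.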

Additional observations from a re-analysis of the deposited data

Results flagged for a closer look

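Over 44 sets of 4 libraries (the 10 genes and the sum of Hspa1a and Hspa1b in 4 groups), 1 library stood apart from the others of its group by a test of the gap at the end of the range: Hspd1 in BM LK 4, at 242 CPM, against 209 to 214 CPM in the other 3 BM LK libraries. CNS LK 4, which has the same stem, was also the highest of its group at 244 CPM. Chance flags about 1 in 20 such sets.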

How the results depend on the processing

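Under every alternative run, 0 of the members were called in each of the 7 comparisons, and over all 653 values of single genes under an alternative the smallest adjusted p was 0.127 (edgeR, Hspa8 between LSK and LK with the replicate number as a block). The direction held in 617 of the 653. The replicate block was the stem for the niche, and for the LPC type the replicate number, which did not pair libraries by the rule (6 of 8 correlations over 0.1). With the replicate block the number of all genes called was 126 for the niche over both LPC types, 26 within LSK, 12 within LK and 162 for the LPC type, against 0, 0, 0 and 45 without it, and Fosb, an immediate early gene, passed between LSK and LK with it (log2 change 0.96, adjusted p = 0.0383, edgeR). Without the filter the counts of genes were 85, 10, 14 and 290, and 48 and 38 for the LPC type within BM and within CNS. DESeq2 called 40 genes for the niche and 222, 39 and 6 for the LPC type over both niches, within BM and within CNS. For the LPC type over both niches 0 genes were called with counts summed per stem or with number 1 left out, 9 with the background covariate and 15 with scaling before the filter. With each library left out that count was lowest at 15 (CNS LK 3 left out) and highest at 138 (CNS LSK 2 left out); it ran from 0 to 2 within BM and from 0 to 3 within CNS. The cause of these moves was not tested. Scaling before the filter was the order used at first and was changed after its values had been seen.

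None of the log2 changes that turned direction passed the test. For the niche, Hsp90aa1 was at -0.0540 without the filter, -0.0540 with scaling before it, -0.0025 with median-of-ratios scaling, -0.0024 with DESeq2 and -0.0035 with pseudogene counts added. Dnaja1 was at -0.0046 both without the filter and with scaling before it, Hsp90ab1 at 0.0026 with the covariate, and Hspe1 at 0.014 with number 1 left out. For the LPC type, Hsp90ab1 was at -0.031 both without the filter and with scaling before it, Hsph1 at -0.028 under both and at -0.021 with number 1 left out, and Hspe1 at 0.013 with symbols only. With each library left out, the niche change ran from -0.020 to 0.034 for Hsp90aa1, from -0.028 to 0.033 for Hspe1 and, within LSK, from -0.020 (without CNS LSK 1) to 0.26 for Dnajb1. The LPC type change ran from -0.042 to 0.037 for Hspe1 and from -0.015 to 0.076 for Hsph1. Depth limits the values of Hspa1a and Hspa1b, which had at most 50 counts together.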
